A study of Mus musculus with 10 samples.

Results

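The genes described here are 10 ATP-dependent chromatin remodelers of the ventral hippocampus (vHpc), taken by symbol from the 24421 genes of the deposited table. They are Smarca2, Smarca4, Arid1a, Arid1b and Phf10 of the SWI/SNF complexes and Chd3, Chd4, Chd5, Chd7 and Chd8 of the chromodomain helicase DNA-binding (CHD) family. All 10 passed the filter of a mean of at least 0.5 CPM (a gene's share of the reads counted on genes, scaled to counts per 1000000), as did 15081 genes in all. RNA came from ovariectomized (OVX) adult female C57BL/6 mice, either WT or heterozygous for a knock-in of the BDNF Val66Met variant (Het-Met), an allele of brain-derived neurotrophic factor that every cell of the animal carries. After 2 weeks of recovery from surgery, the mice drank 17β-estradiol (E2) or vehicle for 6 weeks. E2 was given at 300 nM, or about 0.7 µg each day, in 0.1% ethanol, which was also the vehicle. The 10 libraries were 2 from vehicle-treated OVX WT mice (replicates 1 and 3), 2 from E2-treated OVX WT mice (replicates 1 and 2), 3 from vehicle-treated OVX Het-Met mice and 3 from E2-treated OVX Het-Met mice, each from RNA pooled from 2 animals. No intact animals were among these libraries, so every comparison is between OVX mice.

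ATP-dependent remodelers use the energy of ATP to slide, eject or exchange nucleosomes, which opens or closes DNA to transcription factors. In SWI/SNF complexes, also called BAF and PBAF, the ATPase is either SMARCA2 (BRM) or SMARCA4 (BRG1), and never both in the same complex. ARID1A and ARID1B are alternative DNA-binding subunits of BAF, and PHF10 is a subunit of PBAF that is known from neural progenitors. CHD3, CHD4 and CHD5 are alternative ATPases of the NuRD complex, which joins remodeling to histone deacetylation, and CHD5 is largely a neuronal protein. CHD7 and CHD8 are remodelers known for developmental disorders, CHD7 for CHARGE syndrome and CHD8 for autism. SWI/SNF complexes are also known as partners of steroid receptors, which is one reason to look at them under E2.

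Between 19820184 and 23267410 reads were counted on genes per library. The labelled tissue was checked against its markers. Hippocampal principal neuron markers summed to between 734 and 856 CPM and pan-neuronal markers to between 11121 and 12212 CPM. Choroid plexus markers ranged from 153 to 3264 CPM, from 153 to 2527 in OVX WT libraries and from 267 to 3264 in OVX Het-Met libraries. The summed levels in OVX WT and OVX Het-Met libraries were 98.7 to 121 and 104 to 148 CPM for thalamus markers, 156 to 193 and 154 to 221 CPM for meninges markers, and 279 to 298 and 282 to 329 CPM for microglia markers. They were 4662 to 5931 and 4547 to 5538 CPM for astrocyte markers and 3913 to 4918 and 3843 to 4810 CPM for oligodendrocyte markers. With treatments pooled, all of these lists overlapped between genotypes. Within treatments the choroid plexus sums separated, in opposite directions: under vehicle they were 153 to 1087 CPM in OVX WT and 1467 to 3264 CPM in OVX Het-Met libraries, and under E2 they were 1913 to 2527 and 267 to 1557 CPM. The median log2 interaction of the 10 choroid plexus markers was -2.98. Under E2 other sums separated too. Astrocyte markers were 5382 to 5555 CPM in OVX WT and 4962 to 5304 CPM in OVX Het-Met libraries. Microglia markers were 278.8 to 283.3 and 284.0 to 315.0 CPM, and hippocampal principal neuron markers 754.6 to 781.8 and 734.3 to 746.0 CPM. Of the principal neuron markers, Fibcd1 had a called interaction (log2 -0.69, limma adjusted p = 0.0333). The part of the lists in the remodeler results was not tested, apart from a fit with the choroid plexus markers as a covariate. The libraries differed from each other by more than sampling noise within every group (chi-square divided by its degrees of freedom, 3.42 or more). In bulk tissue, fewer cells of a type and less RNA per cell cannot be told apart.

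Per length, Chd3 was the highest of the 10 genes and Chd7 the lowest. Mean CPM per kb of exonic length, which is a level and not a difference, was 115 for Chd3, 34.1 for Chd5, 31.1 for Smarca4, 30.5 for Chd4, 19.8 for Smarca2, 14.9 for Arid1a, 10.6 for Arid1b, 8.69 for Chd8, 5.71 for Phf10 and 1.83 for Chd7. Thus the NuRD ATPases Chd3, Chd5 and Chd4 and the SWI/SNF ATPase Smarca4 were the 4 highest. The ranges over libraries overlapped among Chd5, Smarca4 and Chd4, and between Arid1b and Chd8. Within the same library, Arid1b was above Chd8 in all but E2-treated OVX Het-Met replicate 3. Chd5 was above Smarca4 in all but OVX Het-Met vehicle replicate 3 and E2 replicate 2, and the order of Smarca4 and Chd4 varied between libraries. The order depended on the length used. With the longest coding transcript in place of the union of exons, a choice made after the data were seen, Smarca2 stood at 47.8 CPM per kb and Smarca4 at 31.6, whereas Chd3 stayed highest at 133 and Chd7 lowest at 2.46. The 10 genes are long, with 4914 to 16523 bases of exon (median 10530) against a median of 4437 bases over the genes tested. In GRCm38 the longest of them along the genome, Arid1b, lies on chromosome 17 from 4994332 to 5347656 on the plus strand, and Smarca4 on chromosome 9 from 21616169 to 21704230 on the plus strand. Arid1a lies on chromosome 4 from 133679008 to 133756769 on the minus strand. No 75-base stretch of the longest coding transcript of any of the 10 was shared with another of the 10. Phf10 shares 470 exonic bases with 1600012H06Rik on the opposite strand, and Chd8 shares 953 with the antisense gene Gm26590. The kit keeps strand, but the counting setting is not given in the sources used here, so the levels of Phf10 and Chd8 are uncertain to that extent.

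Promoters of the remodelers are shown next because Smarca4 and Arid1a were the pair whose values moved together most closely across libraries, and because E2 acts through receptors that bind a known element. RefSeq entries of GRCm38.p6, from 250 bases before to 50 after the start, were held for 8 of the 10 genes as 11 promoters. The Chd5 entries overlap almost entirely and the Chd4 entries in part, so the 11 are not all separate sequences. All 11 were above the median in CG dinucleotides, with 17 to 62 in 300 bases against a median of 7 over 32851 promoters. The lowest, 17 for a Chd4 entry, was above 68.6% of all promoters. The promoters of Smarca4 (chr9:21615919-21616218, plus strand) and Arid1a (chr4:133756720-133757019, minus strand) are printed 5′ to 3′ with CG in capitals.
Smarca4: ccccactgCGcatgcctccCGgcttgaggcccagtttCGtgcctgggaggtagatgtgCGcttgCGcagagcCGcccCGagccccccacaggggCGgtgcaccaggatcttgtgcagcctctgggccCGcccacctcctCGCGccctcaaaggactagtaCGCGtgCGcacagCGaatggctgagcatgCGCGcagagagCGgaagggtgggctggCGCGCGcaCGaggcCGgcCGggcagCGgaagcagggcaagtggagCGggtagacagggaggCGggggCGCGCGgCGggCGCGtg
Arid1a: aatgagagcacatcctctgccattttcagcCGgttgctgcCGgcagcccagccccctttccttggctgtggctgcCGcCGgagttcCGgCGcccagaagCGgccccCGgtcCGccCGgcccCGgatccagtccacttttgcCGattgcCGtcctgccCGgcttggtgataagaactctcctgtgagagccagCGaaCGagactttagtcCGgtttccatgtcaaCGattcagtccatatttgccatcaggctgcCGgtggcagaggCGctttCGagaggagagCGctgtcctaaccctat
The Smarca4 promoter held 33 CG dinucleotides and the printed Arid1a promoter 22. The other Arid1a entry (chr4:133753936-133754235, minus strand), not printed, held 36. The consensus estrogen response element GGTCANNNTGACC, searched on both strands, was in 0 of the 11 promoters and in 0.0700% of all 32851, and the cAMP response element TGACGTCA was in 0 of 11 and in 1.79% of all. A single arm of the element, GGTCA, on either strand, was in 1 of 11, that of Chd8, and in 40.5% of all. The Chd8 promoter (chr14:52257711-52258010, minus strand) is shown with GGTCA in capitals.
Chd8: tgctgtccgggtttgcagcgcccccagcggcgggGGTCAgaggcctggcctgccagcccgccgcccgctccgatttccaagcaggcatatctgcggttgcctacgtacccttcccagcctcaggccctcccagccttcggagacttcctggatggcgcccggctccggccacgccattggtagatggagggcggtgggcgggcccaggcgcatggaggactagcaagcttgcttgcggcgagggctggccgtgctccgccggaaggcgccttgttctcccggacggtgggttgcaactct
A missing match says only that these letters are not in this window, and a match is no evidence of binding.

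The first comparison was between the genotypes. Averaged over both treatments, 9 of the 10 remodelers had a fitted mean in OVX Het-Met mice below that of OVX WT mice, with Chd4 the exception. The differences were small and none passed the threshold. Calls asked for a fold change over 1.3 together with a p-value under 0.05 after Benjamini-Hochberg adjustment, and by limma they numbered 0 of 10 remodelers, beside 0.0265% of all genes tested. At an unadjusted p-value under 0.05, 4 of the 10 were lower (Smarca4, Arid1a, Arid1b and Chd5) and 0 were higher, whereas 7.27% of all genes tested were lower and 9.33% higher. The count of 4 was 1 without WT E2 replicate 1 (4.95% of all genes lower) or Het-Met E2 replicate 2 (6.07%), and 2 without WT vehicle replicate 1 (8.41%), WT vehicle replicate 3 (5.03%) or WT E2 replicate 2 (4.96%). edgeR and DESeq2 on recovered reads also called 0 of 10. The median log2 difference of the 10 genes was -0.059, against 0.024 over all genes tested, of which 42.7% were lower. The direction count was 10 of 10 with median-of-ratios scaling or DESeq2 and 6 of 10 with the gene length trend removed. The shares of all genes lower in these fits are not given here, so nothing is read from the change in count. The study had already drawn attention to remodeler expression in these libraries, so the direction is no independent evidence. Each gene's difference had a 95% interval between -0.31 and 0.15, whereas a fold change of 1.3 is 0.38 on this scale.

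**Figure D1:**
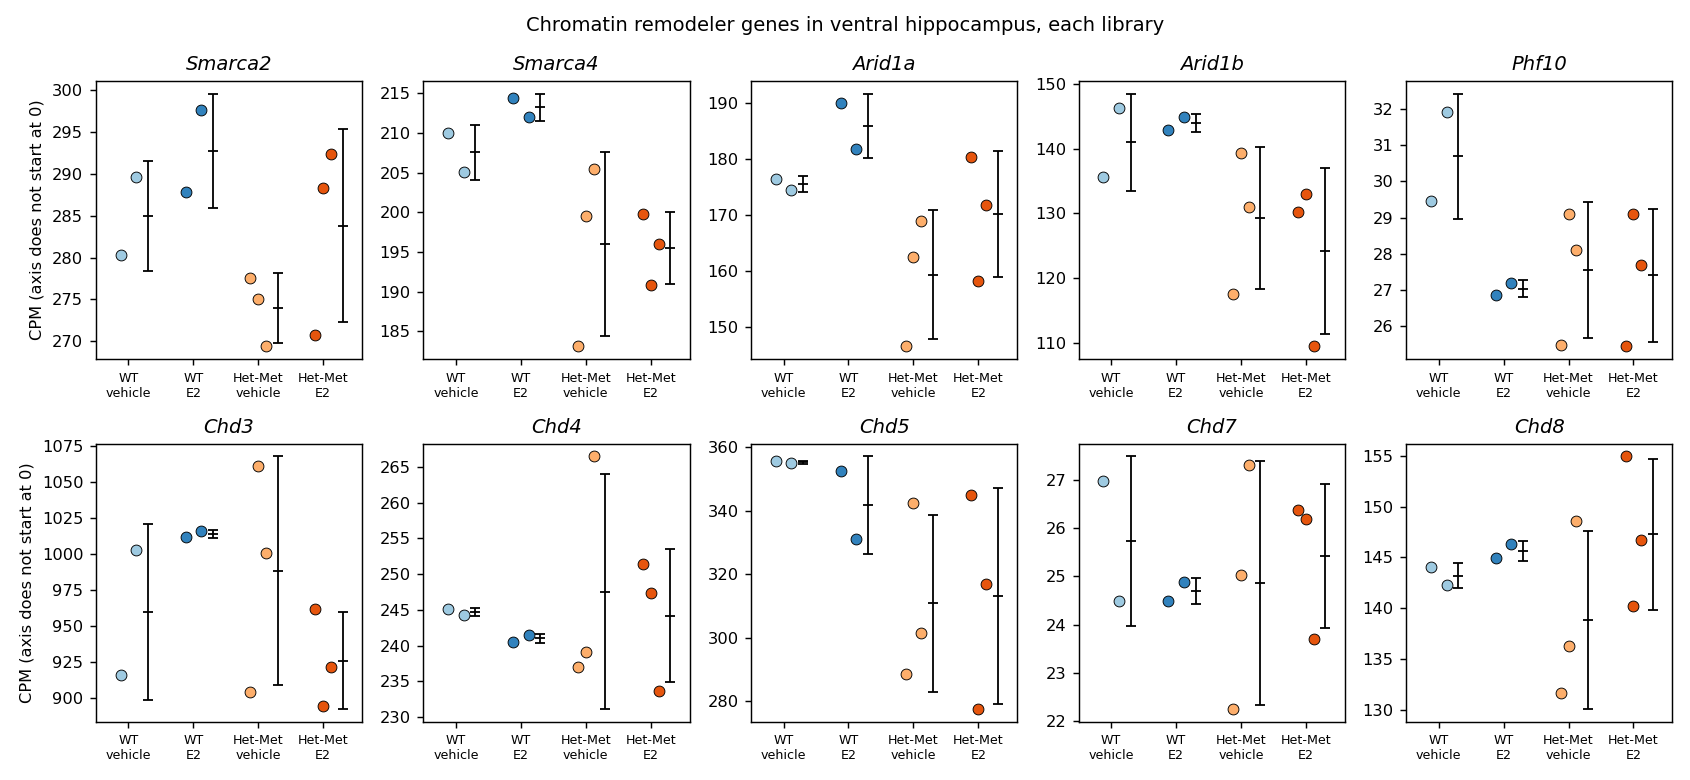
CPM (y axis, separate range for each gene, not starting at 0) of the 10 remodelers in each library, by group (x axis). Each point is a library of RNA pooled from 2 animals and the bars beside them are the mean ± SD of the 2 or 3 libraries. For Smarca4, Arid1a and Arid1b, 5 of 6 OVX Het-Met libraries sit below every OVX WT library.

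Smarca4, the BRG1 ATPase, read 210.0 and 205 CPM in vehicle-treated and 214 and 212 CPM in E2-treated OVX WT libraries. It read 183, 199 and 205 CPM in vehicle-treated and 199.8, 191 and 196 CPM in E2-treated OVX Het-Met libraries. Thus 5 of 6 OVX Het-Met libraries were below every OVX WT library, and the remaining one, vehicle replicate 3, was level with the lowest OVX WT library. Averaged over treatments, the log2 difference was -0.10 (SE 0.047, 95% interval -0.20 to -0.0044, unadjusted p = 0.0419, limma adjusted p = 0.284).

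Smarca2, the alternative ATPase BRM, was 280.3 and 289.6 CPM in vehicle-treated and 288 and 298 CPM in E2-treated OVX WT libraries. In OVX Het-Met libraries it was 278, 275 and 269 CPM under vehicle and 271, 288 and 292 CPM under E2. The vehicle groups did not overlap, while the E2 groups did. The log2 difference over both treatments was -0.051 (SE 0.044, adjusted p = 0.591). The CPM ratio of Smarca4 to Smarca2 within a library, which does not depend on scaling, was 0.708 to 0.749 in OVX WT and 0.660 to 0.763 in OVX Het-Met libraries, so the balance of the ATPases overlapped between genotypes.

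Arid1a, a DNA-binding subunit of BAF, measured 176 and 174 CPM under vehicle and 189.9 and 182 CPM under E2 in OVX WT libraries. Its values in OVX Het-Met libraries were 146, 162 and 169 CPM under vehicle and 180.4, 158 and 172 CPM under E2. The genotypes did not overlap within either treatment, but across treatments E2-treated OVX Het-Met replicate 1 was above both vehicle-treated OVX WT libraries. The log2 difference was -0.14 (SE 0.054, unadjusted p = 0.0243, adjusted p = 0.232).

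Arid1b, its alternative, measured 136 and 146 CPM under vehicle and 143 and 145 CPM under E2 in OVX WT libraries. In OVX Het-Met libraries it stood at 118, 139 and 131 CPM under vehicle and at 130.2, 133 and 109 CPM under E2. Under E2 all 3 OVX Het-Met libraries were below both OVX WT libraries, and under vehicle the groups overlapped through replicate 2. Arid1b had the lowest of the 10 fitted differences, -0.17 (SE 0.064, unadjusted p = 0.0174, adjusted p = 0.204), and under E2 alone it was -0.22 (SE 0.091, unadjusted p = 0.0306, adjusted p = 0.387). Arid1b relative to Arid1a was 0.753 to 0.839 in OVX WT and 0.637 to 0.858 in OVX Het-Met libraries.

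Phf10, the PBAF subunit, was 29.5 and 31.9 CPM under vehicle and 26.9 and 27.2 CPM under E2 in OVX WT libraries. It was 25.5, 29.1 and 28.1 CPM under vehicle and 25.4, 29.1 and 27.7 CPM under E2 in OVX Het-Met libraries. The vehicle-treated OVX WT libraries were the only group that stood above the 3 others. Averaged over treatments the log2 difference was -0.068 (SE 0.066, adjusted p = 0.637).

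Chd5, the neuronal NuRD ATPase, read 356 and 355 CPM under vehicle and 353 and 331 CPM under E2 in OVX WT libraries. OVX Het-Met libraries read 289, 342 and 301 CPM under vehicle and 345, 277 and 317 CPM under E2. All 3 vehicle-treated OVX Het-Met libraries were below both vehicle-treated OVX WT libraries, while E2-treated OVX Het-Met replicate 1 lay between the E2-treated OVX WT libraries. The log2 difference was -0.16 over both treatments (SE 0.064, unadjusted p = 0.0221, adjusted p = 0.221) and -0.20 under vehicle (SE 0.091, unadjusted p = 0.0468, adjusted p = 0.459). Chd5 relative to Chd3 was 0.326 to 0.388 in OVX WT and 0.301 to 0.359 in OVX Het-Met libraries.

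Chd3 and Chd4, the other NuRD ATPases, did not separate by genotype with treatments pooled, although Chd3 did under E2. Chd3 was 917 and 1003 CPM under vehicle and 1012 and 1016 CPM under E2 in OVX WT libraries, and 904, 1061 and 1001 CPM under vehicle and 962, 895 and 922 CPM under E2 in OVX Het-Met libraries. Its highest value of all was thus in a Het-Met library. Chd4 was 245 and 244 CPM under vehicle and 241 and 241 CPM under E2 in OVX WT libraries, and 237, 239 and 266 CPM under vehicle and 251, 247 and 234 CPM under E2 in OVX Het-Met libraries. For Chd4, 3 OVX Het-Met libraries were below every OVX WT library and 3 were above. The log2 differences were -0.045 (SE 0.055, adjusted p = 0.717) for Chd3 and 0.016 (SE 0.048, adjusted p = 0.898) for Chd4, the latter negative with median-of-ratios scaling or DESeq2.

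Chd7 and Chd8 did not separate by genotype in either treatment. Chd7 was 27.0 and 24.5 CPM under vehicle and 24.5 and 24.9 CPM under E2 in OVX WT libraries, and 22.2, 25.0 and 27.3 CPM under vehicle and 26.4, 26.2 and 23.7 CPM under E2 in OVX Het-Met libraries. Chd8 was 144 and 142 CPM under vehicle and 145 and 146 CPM under E2 in OVX WT libraries, and 132, 136 and 149 CPM under vehicle and 155, 140.2 and 147 CPM under E2 in OVX Het-Met libraries. OVX Het-Met libraries lay on both sides of the OVX WT range for both genes. The log2 differences were -0.0059 for Chd7 (SE 0.072, adjusted p = 0.978) and -0.016 for Chd8 (SE 0.050, adjusted p = 0.905), and both were positive with the gene length trend removed.

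The genotypes were also compared within each treatment. Under vehicle, 8 of 10 remodelers were lower in OVX Het-Met mice, beside 44.7% of all genes. By limma 0 were called (0.00663% of all genes), and 1, Chd5, was lower at an unadjusted p-value under 0.05 (4.83% of all genes lower, 5.85% higher). Under E2, 6 of 10 were lower, beside 42.7% of all genes. Again 0 were called (0.0265% of all genes) and 1, Arid1b, was lower at an unadjusted p-value under 0.05 (5.36% of all genes lower, 6.29% higher). Libraries did not overlap for 4 of 10 genes under vehicle (Smarca2, Arid1a, Phf10 and Chd5), all lower in OVX Het-Met mice, against 9.89% of all genes lower and 14.8% higher. Under E2 they did not overlap for 4 of 10 (Smarca4, Arid1a, Arid1b and Chd3), again all lower, against 14.7% of all genes lower and 21.1% higher. Choroid plexus markers also separated the genotypes within each treatment, with a median log2 difference of 1.46 under vehicle and -1.57 under E2, and with them as a covariate 0 of 10 remodelers had an unadjusted p-value under 0.05 under either treatment (3.77% and 1.72% of all genes lower). Over both treatments, 6 libraries against 4, 0 of 10 did not overlap, against 1.72% of all genes lower and 2.63% higher.

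E2 add-back was compared with vehicle within each genotype. No remodeler passed the test in OVX WT or in OVX Het-Met mice, and the differences stayed within 0.18 on the log2 scale in either direction. In OVX WT mice limma called 0 of 10 (0.0133% of all genes) and 0 of 10 had an unadjusted p-value under 0.05 (2.37% of all genes were higher and 1.66% lower). In OVX Het-Met mice limma called 0 of 10 (0% of all genes) and again 0 of 10 had an unadjusted p-value under 0.05 (2.82% of all genes higher, 2.63% lower). The fitted values were higher under E2 for 6 of 10 in OVX WT and for 5 of 10 in OVX Het-Met mice, against 49.0% and 51.8% of all genes. The median log2 difference of the choroid plexus markers under E2 was 1.98 in OVX WT and -1.18 in OVX Het-Met mice. With them as a covariate, 0 of 10 remodelers had an unadjusted p-value under 0.05 in either genotype. The share of all genes in that fit is not given here, so nothing is read from this count.

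In OVX WT mice the 2 libraries of each treatment did not overlap for 7 of the 10 genes. Smarca4, Arid1a, Chd3 and Chd8 were higher under E2, against 15.6% of all genes, and Phf10, Chd4 and Chd5 were lower, against 16.2% of all genes. In OVX Het-Met mice, with 3 libraries a group, 0 of 10 did not overlap, against 5.15% of all genes higher and 5.11% lower. The farthest fitted value from 0 under E2 was that of Phf10 in OVX WT mice, from 30.7 ± 1.73 CPM (SD, n = 2) under vehicle to 27.0 ± 0.233 CPM (n = 2), a log2 difference of -0.18 (SE 0.10, limma unadjusted p = 0.103, adjusted p = 1.00). In OVX Het-Met mice Phf10 was 27.6 ± 1.88 CPM (n = 3) under vehicle and 27.4 ± 1.84 CPM (n = 3) under E2. Arid1a was the gene with the highest fitted value for E2 in both genotypes, at 0.083 (SE 0.084) in OVX WT and 0.095 (SE 0.068) in OVX Het-Met mice. The 95% intervals reached from -0.40 to 0.26 in OVX WT mice and from -0.24 to 0.24 in OVX Het-Met mice, so in Het-Met mice they lay inside a 1.3-fold change for all 10 genes. Averaged over genotypes, limma called 0 of 10 (0.00663% of all genes), and 0 of 10 had an unadjusted p-value under 0.05 (1.73% of all genes higher, 1.49% lower).

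**Figure D2:**
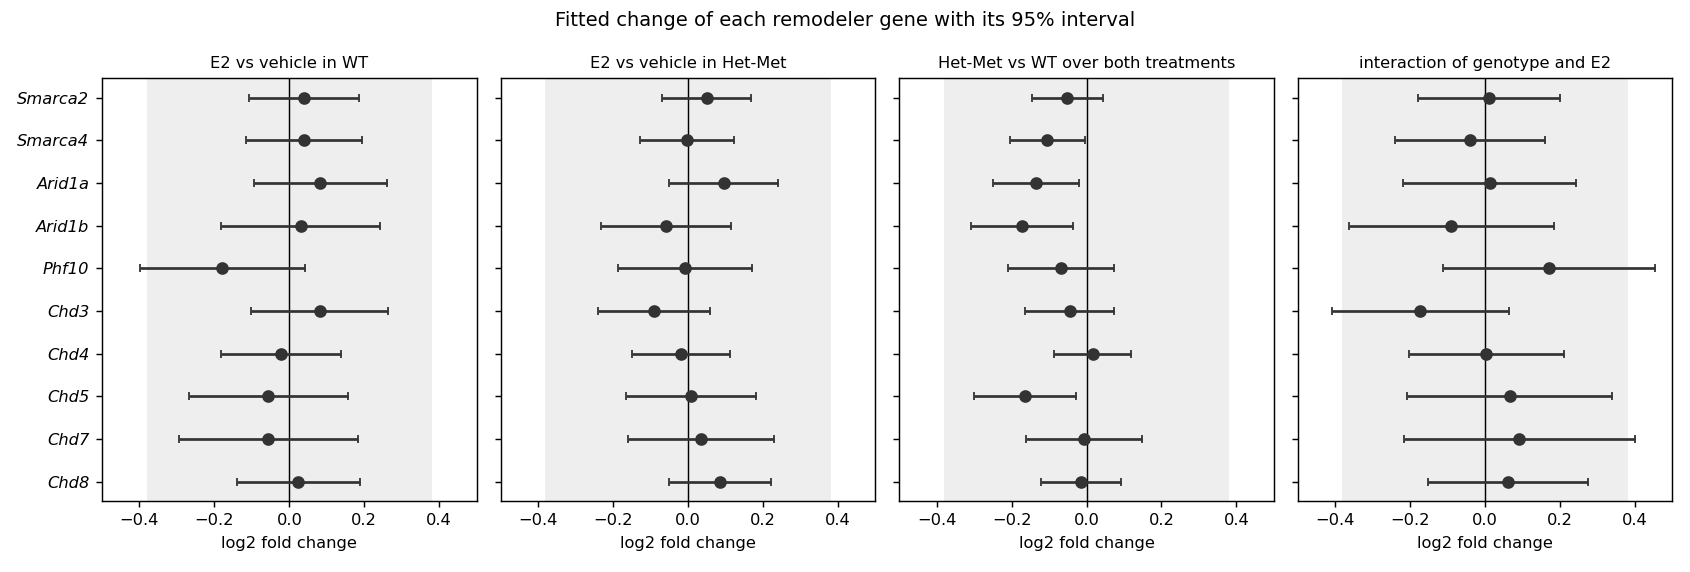
Fitted log2 fold change (x axis) of each remodeler (y axis) in 4 comparisons, as limma estimates with 95% intervals from 10 libraries, and the grey band marks fold changes under 1.3. All intervals for E2 and for the interaction include 0, whereas those of Smarca4, Arid1a, Arid1b and Chd5 lie below 0 for Het-Met against WT as fitted. None of the 10 passed adjustment.

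The interaction asks whether the response to E2 depended on the genotype. limma called 0 of the 10 remodelers (0.0729% of all genes), and 0 of 10 had an unadjusted p-value under 0.05, while 2.80% of all genes were higher and 2.62% lower. The fitted interaction was -0.17 for Chd3 (SE 0.11, unadjusted p = 0.141), -0.090 for Arid1b (SE 0.13), -0.041 for Smarca4 (SE 0.094), 0.0032 for Chd4 (SE 0.097), 0.011 for Smarca2 (SE 0.089) and 0.012 for Arid1a (SE 0.11). It was 0.061 for Chd8 (SE 0.10), 0.065 for Chd5 (SE 0.13), 0.091 for Chd7 (SE 0.14) and 0.17 for Phf10 (SE 0.13, unadjusted p = 0.219), and every adjusted p-value was 1.00. Chd3 was 959.8 ± 61.2 CPM (SD, n = 2) under vehicle and 1014 ± 2.65 CPM (n = 2) under E2 in OVX WT mice, and 989 ± 79.3 CPM (n = 3) and 926 ± 33.7 CPM (n = 3) in OVX Het-Met mice. Its vehicle libraries overlapped between genotypes while its E2 libraries did not. The intervals of the interaction reached from -0.41 to 0.45 and were wider than those of the genotype difference, and a p-value that misses the threshold does not show that E2 acted alike in both genotypes. With the choroid plexus markers as a covariate, 0 of 10 had an unadjusted p-value under 0.05 and the fitted interaction of Smarca2 and Arid1b changed sign. The share of all genes in that fit is not given here, so nothing is read from the count.

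The remodelers were also compared with each other across libraries. Over the 10 libraries the 45 pairs of genes had a median Pearson r of 0.26, and 39 pairs were above 0. Within groups, on deviations from the group means, the median was 0.46 and 33 pairs were above 0. Over the 10 libraries the highest was 0.89, for Smarca4 and Arid1a, and the lowest was -0.57, for Smarca2 and Chd4. Within groups the highest was 0.92, again for Smarca4 and Arid1a, and the lowest was -0.66, for Smarca2 and Chd8. Within groups, Smarca2 was below 0 with every other gene except Phf10. These correlations describe 10 libraries, and all genes of a library share its depth and group. The mean standardized value of the 10 genes was 0.34 and 0.53 in vehicle-treated and 0.45 and 0.49 in E2-treated OVX WT libraries. In OVX Het-Met libraries it was -1.42, -0.022 and 0.30 under vehicle and 0.15, -0.35 and -0.45 under E2. All 6 OVX Het-Met libraries were below the lowest OVX WT library, but vehicle replicate 3, at 0.30, was close to its 0.34. How often the mean of other sets of genes separates in this way was not counted. Het-Met vehicle replicate 1 stood far below the others. Without that library, 7 of 10 genes were lower in OVX Het-Met mice, for which the share of all genes is not given here. In the same fit, 3 of 10 were lower at an unadjusted p-value under 0.05 (5.98% of all genes lower). Outside the lists, the 5 genes closest to this mean profile were Dlgap2 (r = 0.98), Jmjd1c (0.98), Ankrd11 (0.97), Shank2 (0.97) and Spen (0.97), over 10 libraries. Dlgap2 and Shank2 encode postsynaptic scaffold proteins, and Jmjd1c, Ankrd11 and Spen encode nuclear chromatin-associated proteins. All are also long, with 6149 bases of exon for Dlgap2, 17822 for Jmjd1c, 16580 for Ankrd11, 10768 for Shank2 and 14089 for Spen. The median over the genes tested was 4437 bases. The part of length or function in the shared profile was not tested. Shank2 was 205 and 205 CPM in vehicle-treated and 201 and 200.5 CPM in E2-treated OVX WT libraries, and 134, 183 and 189.8 CPM under vehicle and 197, 159 and 158 CPM under E2 in OVX Het-Met libraries.

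The libraries also differed in how level changed with gene length, and this moved with the genotype. The slope of log2(CPM + 0.5) on exonic length, relative to the mean of the libraries, was 0.013 and 0.043 per doubling of length in vehicle-treated and 0.037 and 0.033 in E2-treated OVX WT libraries. It was -0.076, -0.0060 and -0.014 in vehicle-treated and 0.0048, -0.019 and -0.017 in E2-treated OVX Het-Met libraries. Every OVX Het-Met slope was below every OVX WT slope, and vehicle replicate 1 had both the lowest slope and the lowest mean value of the remodelers. With this trend removed from each library, 0 of 10 remodelers had an unadjusted p-value under 0.05 over both treatments (5.78% of all genes lower). By direction alone 6 of 10 were lower, and the median log2 difference was -0.042. The share of all genes lower by direction in that fit is not given here. The differences were then -0.089 for Smarca4, -0.076 for Arid1a, -0.11 for Arid1b and -0.12 for Chd5. Whether the slope follows from the genotype or from the libraries cannot be told apart in these data. With the choroid plexus markers as a covariate, 3 of 10 were lower over both treatments at an unadjusted p-value under 0.05 (7.01% of all genes lower).

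**Figure D3:**
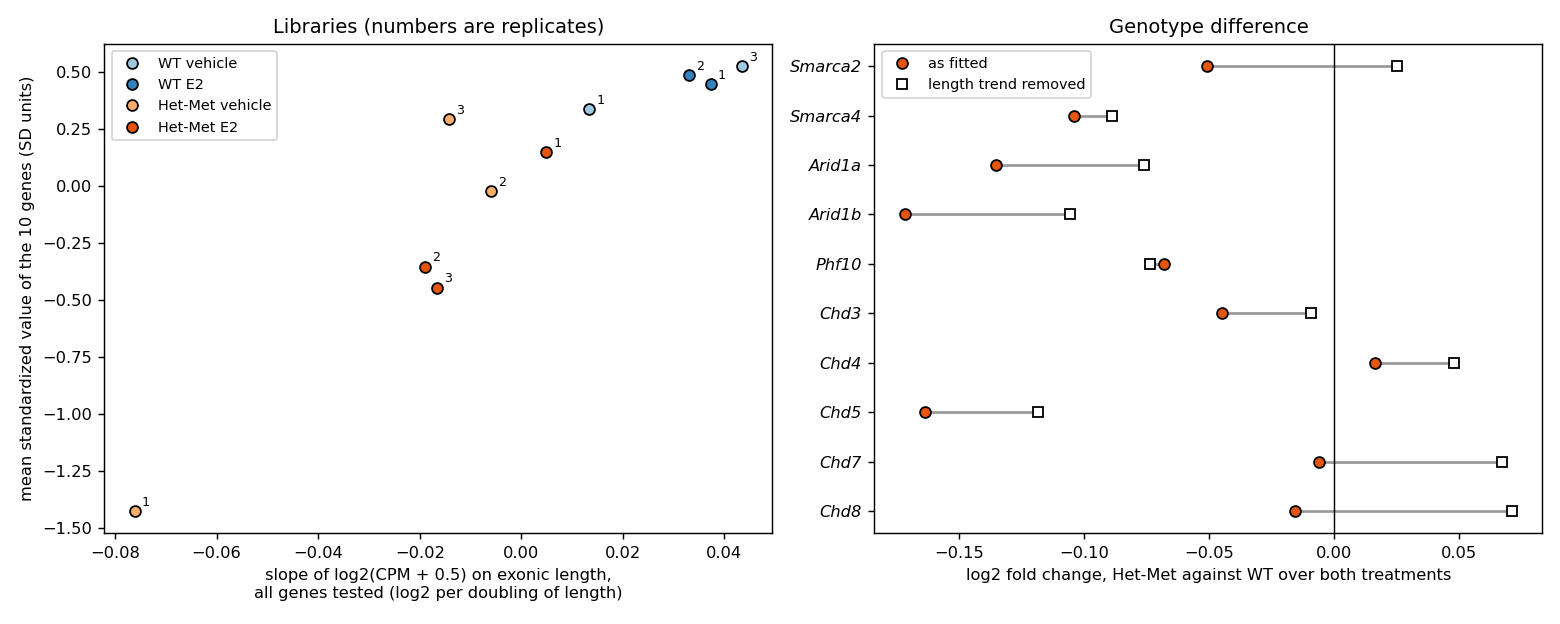
Left, slope of log2(CPM + 0.5) on exonic length (x axis, log2 per doubling of length) and mean standardized value of the 10 remodelers (y axis, SD units), each point a library numbered by replicate. Right, log2 difference of each remodeler for Het-Met against WT (x axis) as fitted (circles) and with the length trend removed (squares): Arid1b moves from -0.17 to -0.11, and Smarca2, Chd7 and Chd8 change sign.

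Other remodeler genes were described from lists of the same machinery. Their differences are given as fitted, without the length trend removed. The part of gene length in the contrasts between lists was not tested. Of 23 other SWI/SNF subunits, 11 were lower by genotype (Het-Met against WT, both treatments averaged), beside 42.7% of all genes. The median log2 difference was 0.00013, and 0 were called. At an unadjusted p-value under 0.05, 4 of 23 were higher (Smarcd2, Smarcd3, Actl6b and Dpf1) and 1 was lower (Pbrm1), beside 9.33% of all genes higher and 7.27% lower. Smarcd2, a BAF60 subunit, was 22.8 and 20.4 CPM under vehicle and 24.3 and 23.6 CPM under E2 in OVX WT libraries, and 29.8, 25.0 and 31.9 CPM under vehicle and 28.8, 24.9 and 24.9 CPM under E2 in OVX Het-Met libraries. All 6 OVX Het-Met libraries were above all 4 OVX WT libraries, as for 2.63% of all genes, with a log2 difference of 0.27 (SE 0.079, limma adjusted p = 0.146). The differences were 0.20 for Smarcd3, another BAF60 subunit (SE 0.056, adjusted p = 0.136), and 0.22 for Dpf1, a subunit of neuronal BAF (SE 0.060, adjusted p = 0.128). As fitted, these subunits stood on the other side of 0 from Smarca4, Arid1a and Arid1b, with which they share complexes.

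Of 12 other NuRD subunits, 4 were lower, beside 42.7% of all genes, the median log2 difference was 0.094 and 0 were called. At an unadjusted p-value under 0.05, 3 of 12 were higher (Mta2, Mbd3 and Rbbp7) and 1 was lower (Gatad2b), beside the same 9.33% and 7.27% of all genes. Gatad2b, which links the deacetylase module to the CHD ATPase, was 34.0 and 37.6 CPM under vehicle and 37.2 and 43.6 CPM under E2 in OVX WT libraries, and 19.2, 32.0 and 30.7 CPM under vehicle and 31.7, 26.7 and 25.3 CPM under E2 in OVX Het-Met libraries. The genotypes did not overlap, beside 1.72% of all genes that separated as lower. Its log2 difference, -0.47 (SE 0.12, limma adjusted p = 0.126), was farther from 0 than that of any of the 10 remodelers. Mta2 (0.13, SE 0.051, adjusted p = 0.222) and Mbd3 (0.12, SE 0.048, adjusted p = 0.229) were core subunits with the opposite sign. For Mta2 the genotypes did not overlap either, beside 2.63% of all genes that separated as higher.

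Of 5 other CHD genes (Chd1, Chd2, Chd6, Chd9 and Chd1l), 5 were lower, beside 42.7% of all genes, the median was -0.095 and 0 were called. At an unadjusted p-value under 0.05, 1 of 5 was lower, Chd6, beside 7.27% of all genes. It was 148 and 135 CPM under vehicle and 143 and 142 CPM under E2 in OVX WT libraries, and 116, 128 and 124 CPM under vehicle and 137, 124 and 132 CPM under E2 in OVX Het-Met libraries. Its log2 difference was -0.16 (SE 0.051, limma adjusted p = 0.155), beside -0.097 for Chd9 and -0.079 for Chd2. Of 14 ISWI, INO80 and other remodelers, 12 were lower, beside 42.7% of all genes, the median was -0.061 and 0 were called. At an unadjusted p-value under 0.05, 4 of 14 were lower (Srcap, Ep400, Atrx and Bptf), beside 7.27% of all genes. The differences were -0.17 for Srcap, the ATPase that loads the histone variant H2A.Z (SE 0.068, adjusted p = 0.242), -0.21 for Ep400, a related remodeler (SE 0.080, adjusted p = 0.220), and -0.14 for Atrx, a remodeler of heterochromatin (SE 0.047, adjusted p = 0.168).

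**Figure D4:**
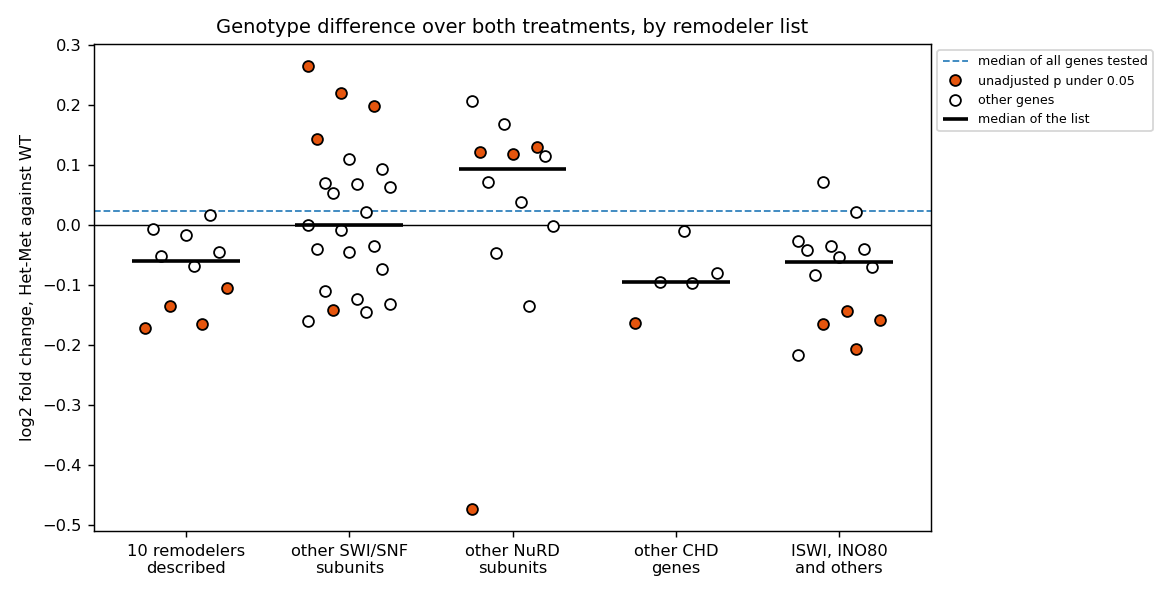
Log2 fold change of OVX Het-Met against OVX WT mice over both treatments (y axis) for each gene of 5 remodeler lists (x axis). Values are as fitted, without the length trend removed. Filled points have an unadjusted p-value under 0.05, thick lines are list medians (-0.059, 0.00013, 0.094, -0.095 and -0.061 from left to right) and the dashed line is the median of all genes tested, 0.024.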

How the data were processed

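RNA of the vHpc was sequenced in 10 libraries of OVX mice, each pooled from 2 animals. According to the submitters' processing notes and the study's methods, the authors aligned 75-bp single-end reads to mm10 with TopHat2 and deposited CPM per gene symbol. The library kit was stranded; the counting setting and annotation are not given in the sources used here. Dividing by a library's lowest nonzero value gave whole numbers (tolerance 0.001) for 100% of entries, and these whole reads were used. Precision covers counting error only, and p-values measure the spread between pools.

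The genes and lists were chosen with earlier results of these data known. Exonic lengths and positions were from GENCODE vM21 (GRCm38), which matched 23376 symbols directly and 670 by an older symbol, with 375 unmatched; 99.3% of genes tested had a length. limma 3.58.1 (R 4.3.3) fitted the 4 group means over all 10 libraries to log2(CPM + 0.5), with an intensity trend, for the 15081 genes averaging 0.5 CPM or more (prior degrees of freedom 8.90, residual 6). Tests were two-sided. Calls required a Benjamini-Hochberg adjusted p-value under 0.05 over all genes and a fold change above 1.3. Fold changes are on the log2(CPM + 0.5) scale. Named from the other lists were the 3 genes with the smallest unadjusted p-value for genotype over both treatments and any called; any other gene is named because it passed an unadjusted p-value. The fit was tested on simulated data. Alternatives were other thresholds, pseudocounts, filters, scalings, edgeR 4.0.16 and DESeq2 1.42.0 on recovered reads, a replicate block, a length correction, a choroid plexus covariate and each library left out. Level per length over the longest coding transcript was added after seeing the data. Figures used python 3.11.15 and matplotlib 3.10.9.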

Additional observations from a re-analysis of the deposited data

Results flagged for a closer look

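Among the remodeler lists, 1 gene had vehicle and E2 libraries that did not overlap in either genotype and that differed in opposite directions. Bcl7c, a small subunit of SWI/SNF, was 2.17 and 2.13 CPM under vehicle and 1.84 and 1.81 CPM under E2 in OVX WT libraries, so both E2 libraries were lower. In OVX Het-Met libraries it was 1.47, 1.41 and 1.34 CPM under vehicle and 2.35, 1.75 and 2.37 CPM under E2, so all 3 E2 libraries were higher. The interaction was 0.66 on the log2 scale (SE 0.25, unadjusted p = 0.0201, limma adjusted p = 0.740), which did not pass adjustment. At these levels a gene is counted by few reads. Taken singly, libraries did not overlap for 15.6% of all genes higher and 16.2% lower under E2 in OVX WT mice. In OVX Het-Met mice these shares were 5.15% and 5.11%. The share of all genes that separated in both genotypes in opposite directions was not counted, so the pattern of Bcl7c is description only.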

How the results depend on the processing

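In every alternative run, 0 of the 10 remodelers were called in any comparison. Of 508 alternative values of 22 effects of the remodelers, 474 kept direction and call and 34 changed sign, none with an adjusted p-value under 0.05. The cause was not tested. For genotype over both treatments, the sign changed for Smarca2 (0.025), Chd7 (0.067) and Chd8 (0.071) with the length trend removed, and for Chd4 with median-of-ratios scaling (-0.0066) and DESeq2 (-0.0050). For the interaction, it changed for Smarca2 with the length trend removed (-0.013) or the choroid plexus covariate (-0.056), Arid1a with the replicate block (-0.027) or length trend removed (-0.0077), Arid1b with the covariate (0.071), and Chd4 with quantile normalization (-0.011), edgeR (-0.0047), DESeq2 (-0.00056), the block (-0.011) and the length trend removed (-0.0087). Leaving out each library gave -0.011 to 0.032 for Chd4, -0.040 to 0.032 for Chd7 and -0.040 to 0.0029 for Chd8 over both treatments, and for the interaction -0.012 to 0.045 for Smarca2, -0.047 to 0.063 for Arid1a, -0.027 to 0.057 for Chd4 and -0.0074 to 0.15 for Chd5.

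The count of genotype-lower remodelers at an unadjusted p-value, 4, fell to 1 without WT E2 replicate 1 or without Het-Met E2 replicate 2. It fell to 2 without WT vehicle replicate 1, WT vehicle replicate 3 or WT E2 replicate 2. It was 3 without Het-Met vehicle replicate 1 or Het-Met E2 replicate 3, or with quantile normalization. The all-gene shares without Het-Met E2 replicate 3 and with quantile normalization are not given here. Counts over all genes depended on settings. For E2 in OVX WT mice the count of 2 was 389 at an unadjusted p-value, 0 with a pseudocount of 0.1, no filter, a 2 CPM filter or the covariate, 4 with a pseudocount of 1, 14 with DESeq2, 1 with only the libraries compared and 0 to 16 with a library left out. For E2 in OVX Het-Met mice, 0 became 294 and, with DESeq2, 6. For genotype under vehicle, 1 became 496 at an unadjusted p-value, 34 with DESeq2, 2 with only the libraries compared and 1 to 2 with a library left out. Under E2, 4 became 696 at an unadjusted p-value, 8 with a pseudocount of 1, 0 with no filter or the covariate, 10 with median-of-ratios scaling, 1 with quantile normalization, 14 with edgeR, 29 with DESeq2, 52 with only the libraries compared, 13 with the length trend removed and 0 to 45 with a library left out. For the interaction, 11 became 597 at an unadjusted p-value, 0 with no filter or the covariate, 5 with a mean of at least 2 CPM, 7 with quantile normalization, 37 with DESeq2, 17 with the length trend removed and 0 to 71 with a library left out. For E2 over both genotypes, 1 became 118 at an unadjusted p-value, 0 with a pseudocount of 0.1, no filter, a 2 CPM filter or edgeR, 3 with median-of-ratios scaling or quantile normalization, 5 with DESeq2 and 0 to 1 with a library left out. For genotype over both treatments, 4 became 293 at an unadjusted p-value, 2 with no filter, 88 with DESeq2 and 1 to 86 with a library left out.

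The replicate numbers did not pair the libraries: the 12 pairs of the same number had correlations of their deviations from -0.17 to 0.083. With the replicate number as a block the counts were 10 for E2 in OVX WT mice, 2 for genotype under E2, 18 for the interaction and 0 for E2 over both genotypes, and 3 remodelers were lower by genotype over both treatments at an unadjusted p-value, beside 6.98% of all genes.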
